A study of Mus musculus with 6 samples.

Results

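Amino acid transporter families were examined in Sertoli cells with and without Pa1. The members were the protein-coding genes whose symbols belong to 7 solute carrier families, namely Slc1, Slc3, Slc6, Slc7, Slc36, Slc38 and Slc43, and a gene was taken as a member by a match of its symbol. There were 60 members among 28262 listed genes, of which 17451 were protein coding. Slc6 held 18 of them, Slc7 15, Slc38 11, Slc1 7, Slc36 4, Slc43 3 and Slc3 2. The families also hold carriers of other substrates, such as creatine, taurine, monoamines and nucleobases, and the symbol rule took in Slc7a6os, a gene named for lying opposite Slc7a6 that is not a carrier.

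RNA-seq was performed on Sertoli cells, the somatic cells of the seminiferous tubule that nurse the germ cells, from untreated 20-day-old C57BL/6 mice. Pa1 F/F cells, whose Pa1 alleles are floxed and intact, were the control (3 libraries), and Amh-pa1-/- cells, in which a Cre recombinase under the Sertoli cell promoter of Amh deletes the same floxed alleles, were the knockout (3 libraries). The cells were enzymatically isolated, cultured, and washed to remove unattached germ cells, and the study calls its samples biological replicates without saying how many animals or cultures a library came from, so the p-values measure the spread between these libraries. Pa1 itself was not analysed here, and the genotype was therefore not checked in the reads.

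Amino acids cross the plasma membrane through carriers that couple them to a sodium or proton gradient, swap one amino acid for another, or let them pass down their own gradient. Several Slc7 proteins, the light chains, reach the membrane only when joined by a disulfide bond to a heavy chain, Slc3a2 or Slc3a1, and their exchange depends on the substrates that sodium-driven Slc1, Slc6 and Slc38 carriers accumulate. In the seminiferous tubule, Sertoli cells form the blood-testis barrier, so that nutrients for the meiotic and postmeiotic germ cells have to pass through them.

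Between 13203757 and 16231443 reads were counted on genes per library, and the members held between 0.281% and 0.319% of them. The label was checked against 16 Sertoli cell markers. Sox9 stood at 4290.2 to 4983 normalized counts in control and 3172 to 4904 in knockout libraries, and Wt1 at 4976 to 5155 and 4493 to 6084, whereas Rhox5 and Trf were at 16 counts or fewer in every library. Of 14 tested Sertoli cell markers, 3 were higher and 4 lower at the adjusted p (21.4% and 28.6%, against 18.2% and 17.1% of all tested genes). Gata4 fell from 7734 ± 521 to 4197 ± 153 normalized counts and Clu from 193368 ± 817 to 119830 ± 22962, Inhbb was called lower, and Cst9 was called higher. The 16 markers summed to 240823 to 244381 in control and 148667 to 190731 in knockout libraries, most of it Clu. A normalized count is a count divided by the library's effective size and scaled to the mean library. Markers of other testicular cells moved with the genotype. Among 10 tested macrophage markers 8 were called lower, and the 13 listed summed to 1928 to 2097 normalized counts in control and 1130.2 to 1390.2 in knockout libraries. Mrc1, which did not pass (log2 fold change 0.17), gave a large part of these sums, 945 to 1022 in the control and 932 to 1216 in the knockout. Of those called, Adgre1, C1qc, Ptprc and Tyrobp passed the filter on low counts through the control libraries only. Among 4 tested Leydig cell markers 3 were called lower, with sums over the list of 12326 to 13716 against 2607 to 4898 and with Cyp17a1 and Insl3 at or under 3 counts in every library. Acta2, a smooth muscle actin, was called higher, from 2537 to 3239 normalized counts in the control to 11886 to 15383 in the knockout, and made up most of the sum over 6 peritubular myoid markers (3152 to 4022 and 12134 to 17945). The other 4 tested did not pass. Among them Myh11 was at 649, 481 and 579.99 in the control and at 216, 164 and 1605 in the knockout, above the control in knockout replicate 3 alone. Of 4 tested endothelial markers, Pecam1 was called lower, Cdh5 fell, and Vwf, which passed the filter through the knockout libraries only, was called higher (sums 1716 to 1801 and 943 to 1509.98, Emcn at or near 0). Of 4 tested spermatogonial markers, Kit, Ddx4 and Gfra1 were called lower from at most 48.2 normalized counts, Kit and Ddx4 having passed the filter through the control libraries only (sums 2842 to 3262 and 1536 to 2940.3, mostly Uchl1, with Sall4, Stra8 and Zbtb16 at or near 0). None of 3 spermatocyte and 1 spermatid markers tested passed. In bulk RNA, fewer cells of a type and less RNA per cell cannot be told apart, and the part of these shifts in the values below was not tested. Libraries of a group were not equally close. Control replicates 1 and 3 lay near each other, as did knockout replicates 1 and 2, so that control replicate 2 and knockout replicate 3 stood apart.

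The 250 bases upstream of the transcription start are shown for 5 members, because 2 of them (Slc1a6 and Slc7a8) were called by the test described below and 3 carried a motif read by stress-responsive or AP-1 factors. The sequences are RefSeq's for GRCm38.p6, the build of the count table, and are written 5′ to 3′ on the strand of the gene, with motif matches in capitals.
Slc1a6, chr10:78780246-78780495, plus strand: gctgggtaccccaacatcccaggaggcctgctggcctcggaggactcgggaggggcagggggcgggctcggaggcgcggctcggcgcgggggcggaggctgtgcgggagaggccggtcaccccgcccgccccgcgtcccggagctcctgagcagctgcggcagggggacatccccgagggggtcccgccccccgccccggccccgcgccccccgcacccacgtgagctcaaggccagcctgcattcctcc
Slc7a8, chr14:54781887-54782136, minus strand: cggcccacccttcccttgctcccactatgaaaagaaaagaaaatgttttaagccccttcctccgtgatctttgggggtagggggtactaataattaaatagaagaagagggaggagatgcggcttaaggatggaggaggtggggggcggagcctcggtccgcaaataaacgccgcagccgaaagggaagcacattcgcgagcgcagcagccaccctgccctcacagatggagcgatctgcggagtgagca
Slc7a11, chr3:50443614-50443863, minus strand: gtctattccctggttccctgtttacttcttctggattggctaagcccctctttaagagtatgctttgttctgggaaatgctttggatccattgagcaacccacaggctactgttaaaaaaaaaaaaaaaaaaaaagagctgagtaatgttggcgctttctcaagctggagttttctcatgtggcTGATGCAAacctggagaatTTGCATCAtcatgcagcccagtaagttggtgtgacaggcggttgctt
Slc7a1, chr5:148399905-148400154, minus strand: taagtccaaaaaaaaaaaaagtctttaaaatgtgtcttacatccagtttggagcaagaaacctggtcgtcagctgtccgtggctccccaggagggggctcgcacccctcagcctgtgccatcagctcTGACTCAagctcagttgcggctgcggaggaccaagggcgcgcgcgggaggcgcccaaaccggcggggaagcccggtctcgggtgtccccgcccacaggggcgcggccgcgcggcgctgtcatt
Slc6a14, chrX:21714650-21714899, plus strand: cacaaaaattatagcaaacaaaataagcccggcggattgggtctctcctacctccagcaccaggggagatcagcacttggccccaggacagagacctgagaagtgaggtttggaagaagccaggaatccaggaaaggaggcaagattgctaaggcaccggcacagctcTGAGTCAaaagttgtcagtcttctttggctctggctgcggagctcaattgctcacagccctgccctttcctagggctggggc

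Both strands of each window were searched for TGATGNAA, the core bound by pairs of C/EBP and ATF proteins such as ATF4, and for TGANTCA. The latter pattern reads the same on both strands. It takes in the AP-1 site bound by Jun and Fos proteins, TGACTCA or TGAGTCA, and also TGATTCA and TGAATCA. The letters of these motifs did not overlap each other in any window printed. RefSeq promoters were matched by symbol for 44 of the 60 members and for 25 of the 36 tested below. TGATGNAA was found in 3 of the 44 members (6.82%) against 3.91% of 27025 genes with a promoter. In Slc7a11 it occurred once on each strand, starting 66 and 47 bases before the transcription start, and Slc7a7 and the untested Slc6a21 were the others. TGANTCA was found in 7 of the 44 members (15.9%) against 7.82% of all genes. It started 123 bases before the start of Slc7a1, 82 bases before that of Slc6a14 and 166 bases before that of Slc38a10. The match was TGACTCA in Slc7a1, TGAGTCA in Slc6a14 and TGATTCA in Slc38a10. Slc38a7 and Slc6a12 also matched as TGATTCA alone, so the share is not one of AP-1 sites. Slc38a10 was the one with either motif among the 6 members that rose, and neither motif was found in the 3 members that fell and had a promoter (Slc3a2, Slc6a9 and Slc7a8). A match describes letters in the window and not the binding of a factor.

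Transcripts of 36 members were abundant enough to be tested, and 24 of these did not pass the adjusted p. Counts were compared with edgeR's quasi-likelihood test across 14919 genes with Benjamini-Hochberg adjustment, and a gene was called at an adjusted p under 0.05 and at least a doubling or halving, a log2 fold change of 1 in size. Slc1a6 was the 1 member called higher (2.78% of tested members), while 5.44% of all tested genes were called higher. Slc7a8 and Slc36a2 were the 2 called lower (5.56%), while 6.56% of all tested genes were. Slc36a2 passed the filter on low counts through the control libraries only, where it was high, and it was the 1 such member of 36, so its call is no support for a count of lower members. At the adjusted p alone, 6 members rose (16.7%, against 18.2% of all tested genes) and 6 fell (16.7%, against 17.1%). The members' shares were thus near or below those of all tested genes, and the median log2 fold change was 0.00 for the members as for all tested genes. The normalized counts of the groups did not overlap for 23 members (63.9%) and for 52.4% of all tested genes.

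**Figure D1:**
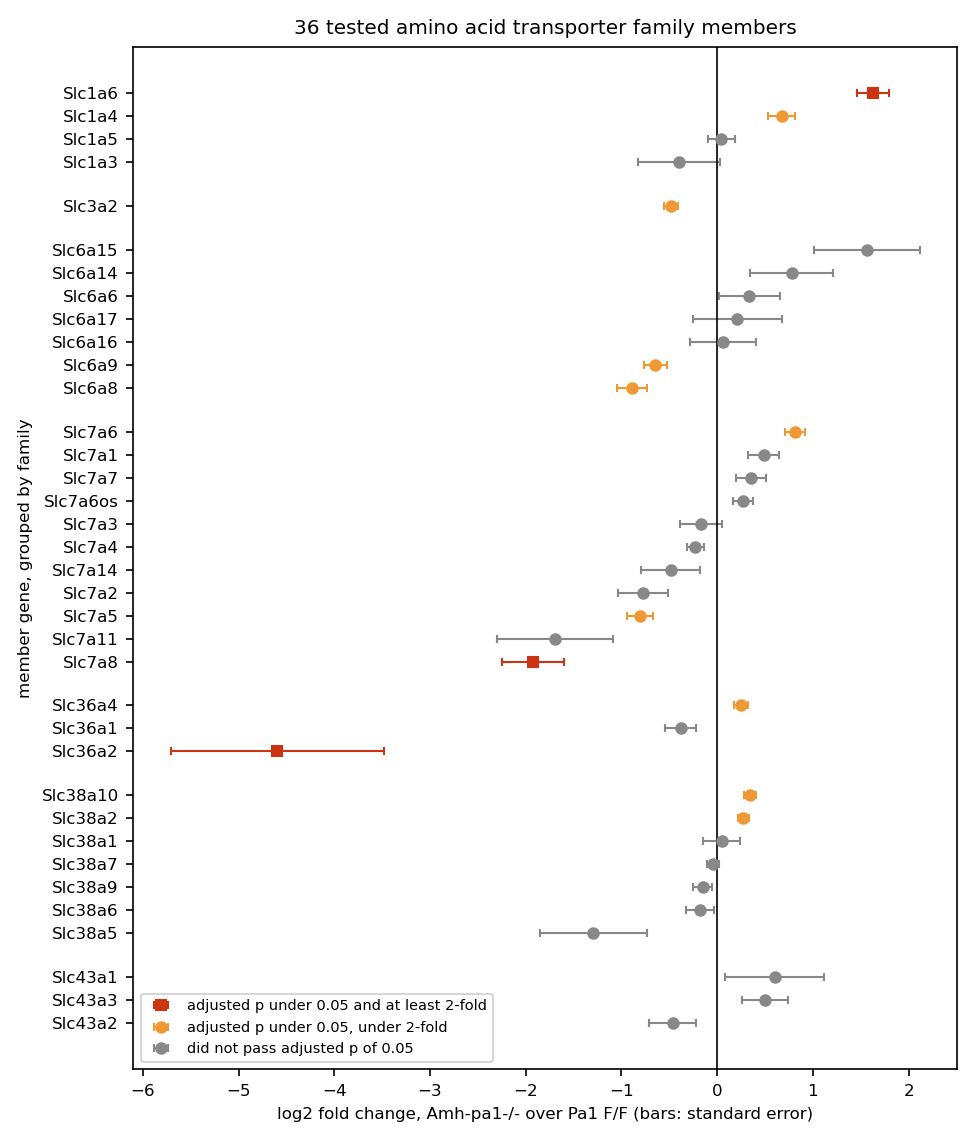
Log2 fold change of Amh-pa1-/- over Pa1 F/F libraries (x axis, bars give the standard error) for the 36 tested members, grouped by family (y axis). Squares mark the 3 members past both thresholds, of which Slc1a6 is at 1.63, Slc7a8 at -1.92 and Slc36a2, with the widest bar, at -4.59, and orange circles mark members past the adjusted p only.

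Among the sodium-driven glutamate and neutral amino acid carriers of Slc1, Slc1a6 and Slc1a4 rose. Slc1a6, the glutamate and aspartate carrier EAAT4 best known from cerebellar Purkinje cells, lies at chr10:78780496-78814765 on the plus strand of GRCm38. It had 736, 618 and 663 normalized counts in control replicates 1, 2 and 3 and 1870.2, 1725 and 2643 in knockout replicates 1, 2 and 3. Every knockout library lay above every control library, and knockout replicate 3 was the highest. The mean rose from 672 ± 59.6 to 2079 ± 494 (SD, n = 3 each), and the log2 fold change was 1.63 ± 0.17 (SE, edgeR adjusted p = 0.000839).

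Slc1a4, the alanine, serine and cysteine exchanger ASCT1, rose from 421 ± 55.1 to 672 ± 99.2 normalized counts (log2 fold change 0.67 ± 0.14, edgeR adjusted p = 0.012, or 0.0987 with the close replicates summed into 2 libraries a group). Its libraries did not overlap either. Slc1a5, the related glutamine exchanger ASCT2, was at 206 ± 17.3 and 212 ± 32.3 normalized counts and did not pass (log2 fold change 0.04 ± 0.14). Slc1a3, the glutamate carrier of astrocytes, stayed below 20 normalized counts in every library. Slc1a1, Slc1a2 and Slc1a7 had 7 counts or fewer in every library and were not tested.

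Per kilobase of transcript, Slc1a6 was the most abundant Slc1 member in both genotypes. Summed over the family, the level per kilobase was 529, 456 and 486 in the control and 1105.5, 1045 and 1439 in the knockout libraries. Slc1 thereby made up 4.22 ± 0.30% of the summed level of all 60 members in control and 10.96 ± 2.41% in knockout cells, with no overlap between the groups.

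The heavy chain and its main light chain fell, while another light chain rose. Slc3a2, the 4F2 heavy chain also known as CD98, had 5923, 5270.1 and 6017 normalized counts in the control and 3905.5, 4114 and 4317.5 in the knockout libraries. All 3 knockout libraries lay below the control. Its log2 fold change was -0.48 ± 0.07 (edgeR adjusted p = 0.00338), from 5737 ± 407 to 4112 ± 206. With the close replicates summed, which leaves 2 libraries a group, the edgeR adjusted p was 0.0845 for Slc3a2, 0.0703 for Slc7a5 below and 0.0399 for Slc7a6. Slc3a1, the heavy chain of kidney and gut, had at most 5 counts in a library.

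Slc7a5, the light chain LAT1 that exchanges large neutral amino acids such as leucine, had 9968, 8323 and 9963 normalized counts in the control and 5914, 5883 and 4352 in the knockout libraries. The groups were clearly apart, and the library farthest from its group was low in each, control replicate 2 and knockout replicate 3. The log2 fold change was -0.81 ± 0.14 (edgeR adjusted p = 0.00523).

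Slc7a6, the light chain y+LAT2 that swaps cationic amino acids for neutral ones with sodium, had 2013, 2021 and 2062 normalized counts in the control and 3257, 3255 and 4181 in the knockout libraries. The 3 control libraries were nearly equal, and all knockout libraries were higher. The log2 fold change was 0.81 ± 0.10 (edgeR adjusted p = 0.00182). Slc7a6os was at 461 ± 28.9 and 554 ± 62.4 normalized counts and did not pass (log2 fold change 0.27 ± 0.10, edgeR adjusted p = 0.0877), and its span in the table does not overlap that of Slc7a6.

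Slc7a8, the light chain LAT2 that exchanges neutral amino acids more broadly, lies at chr14:54722216-54781886 on the minus strand. It had 339.8, 690.4 and 372 normalized counts in the control and 122, 91.3 and 155 in the knockout libraries. The groups did not overlap, although control replicate 2 was far above the other control libraries. The log2 fold change was -1.92 ± 0.32 (edgeR adjusted p = 0.00495), and it was -1.53 without control replicate 2, still called. The call was lost when the close replicates were summed (edgeR adjusted p = 0.0523) and when the null was set at a halving (0.0901).

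Slc7a11, the cystine and glutamate exchanger xCT that supplies cysteine for glutathione, had 116, 428 and 123 normalized counts in the control and 83.9, 86.7 and 35.1 in the knockout libraries. Control replicate 2 alone was far above the rest. The log2 fold change of -1.70 ± 0.60 did not pass (edgeR adjusted p = 0.0684), and without control replicate 2 it was -0.80. Slc7a7, the light chain y+LAT1, was at 91.5, 105 and 96.5 normalized counts in the control and at 145, 113 and 115 in the knockout libraries. Its values did not overlap, but its log2 fold change of 0.35 ± 0.15 did not pass (edgeR adjusted p = 0.116). Slc7a7 shares genomic positions with Oxa1l on the other strand, which had 587 to 1092 counts, and since no strand setting of the counting is stated, reads of opposite genes cannot be told apart. Slc7a9, Slc7a10 and Slc7a13, the other light chains listed, had at most 2 counts in any library, and the related Slc7a15 at most 5.

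Set per kilobase, the 5 tested light chains summed to 3509, 3168 and 3532 in the control and 2658, 2625 and 2448 in the knockout libraries. The heavy chain Slc3a2 stood at 2318, 2063 and 2355 per kilobase in the control and at 1529, 1610.2 and 1689.8 in the knockout. Light and heavy chains were thus both lower in every knockout library, and their ratio was 1.52 ± 0.02 in control and 1.61 ± 0.15 in knockout cells, with overlapping values. The makeup of the light chains did not overlap. Slc7a5 made up 80.8%, 74.7% and 80.2% of the light chain level in the control and 63.3%, 63.7% and 50.5% in the knockout libraries. Slc7a6 made up 15.3%, 17.0% and 15.5% in the control and 32.6%, 33.0% and 45.5% in the knockout. Slc7a8 went from 3.38 ± 1.63% of the light chain level to 1.16 ± 0.35%. These are shares of RNA levels and say nothing of the proteins at the membrane.

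**Figure D2:**
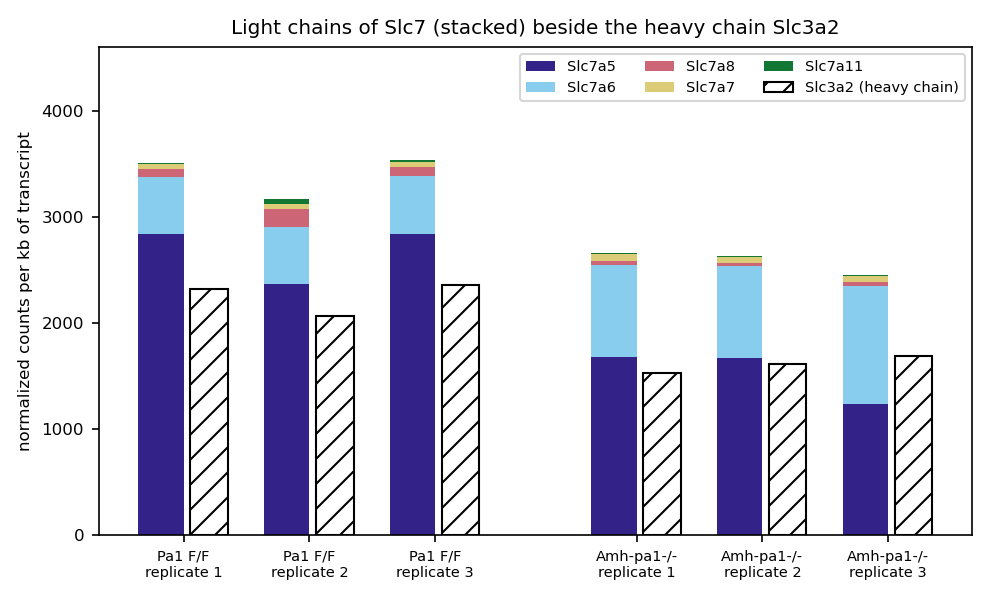
Normalized counts per kilobase of transcript (y axis) in each library (x axis) for the light chains of Slc7, stacked, beside the heavy chain Slc3a2 (hatched). The stacks reach 3168 to 3532 in Pa1 F/F and 2448 to 2658 in Amh-pa1-/- libraries, with a larger part of Slc7a6 in the latter.

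The other Slc7 carriers, which work without a heavy chain, did not pass the test. Slc7a1, the main carrier of arginine and lysine, had 4372, 3491 and 4474 normalized counts in the control and 6474, 6289.5 and 4511 in the knockout libraries. The groups met without overlapping, since knockout replicate 3 lay just above the highest control. The log2 fold change of 0.49 ± 0.16 missed the threshold (edgeR adjusted p = 0.053). Slc7a2, a cationic carrier induced in inflammation, had 1486, 2896 and 1534 normalized counts in the control and 1192, 1261 and 1007 in the knockout libraries, again with control replicate 2 the highest. Its log2 fold change was -0.77 ± 0.26 (edgeR adjusted p = 0.0594). Slc7a3, Slc7a4 and Slc7a14 had log2 fold changes from -0.49 to -0.17, none of which passed.

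Among the proton-coupled carriers of Slc36, which move small amino acids such as glycine, alanine and proline, a scarce member fell and an abundant one rose slightly. Slc36a2, PAT2, at chr11:55158470-55185077 on the minus strand, had 17, 123 and 22 counts in the control and 4, 1 and 1 counts in the knockout libraries. Control replicate 2 held most of the control counts, and 2 knockout libraries were under 3 counts. The fitted log2 fold change of -4.59 ± 1.11 (edgeR adjusted p = 0.0192) rests on these few knockout counts, so its size is poorly fixed. It was -3.14 without control replicate 2, and without knockout replicate 2 the adjusted p was 0.0642.

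Slc36a4, PAT4, a high-affinity carrier of proline and tryptophan, had 1188, 1141 and 1298 normalized counts in the control and 1527, 1441 and 1348 in the knockout libraries. The rise was small, with knockout replicate 3 close to the highest control (log2 fold change 0.25 ± 0.07, edgeR adjusted p = 0.0378). Leaving out either control replicate 1, control replicate 2, knockout replicate 1 or knockout replicate 2 left it short of the threshold, with edgeR adjusted p from 0.0887 to 0.123, as did DESeq2's Wald test (0.0521). Slc36a1, the lysosomal PAT1, was at 676 ± 139 and 519 ± 64.8 normalized counts (log2 fold change -0.38 ± 0.16, edgeR adjusted p = 0.112). Slc36a3, known from testis, had 2 to 13 counts in a library and was not tested.

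In Slc38, the sodium-coupled carriers of glutamine and other small neutral amino acids, 2 of 7 tested members rose and none fell (28.6% higher, against 18.2% of all tested genes, a difference of about 1 gene). Slc38a2, SNAT2, a carrier induced when amino acids run short, was the most abundant per kilobase. It had 4307, 4105 and 4437.5 normalized counts in the control and 5103, 5048 and 5373 in the knockout libraries. The spread within each genotype was small, and every knockout library was higher (log2 fold change 0.27 ± 0.06, edgeR adjusted p = 0.0109, or 0.1 with the close replicates summed). Slc38a10, a less studied member, rose from 2329.6 ± 97.5 to 2947 ± 160.2 normalized counts (log2 fold change 0.34 ± 0.06, edgeR adjusted p = 0.0063, or 0.0793 with the close replicates summed).

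Slc38a5, SNAT5, which also carries histidine and serine, had 103, 93.9 and 102 normalized counts in the control and 15.6, 22.5 and 83.2 in the knockout libraries. Knockout replicates 1 and 2 were far below the control, whereas knockout replicate 3 was near it, and the log2 fold change of -1.29 ± 0.56 did not pass (edgeR adjusted p = 0.117). It was called lower by limma-voom and without knockout replicate 3. Slc38a7 and Slc38a9, both lysosomal carriers, the latter a sensor of arginine for mTORC1, had log2 fold changes of -0.04 ± 0.06 and -0.15 ± 0.10. Slc38a1 and Slc38a6 had log2 fold changes of 0.05 ± 0.19 and -0.18 ± 0.15. None of these passed, and the other 4 Slc38 members had at most 23 counts in a library.

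In Slc6, whose members use sodium and chloride, the creatine and glycine carriers fell. Slc6a8, the creatine carrier and the most abundant Slc6 member per kilobase in control cells, had 4468, 4987 and 4754 normalized counts in the control and 2890.3, 2875 and 1904 in the knockout libraries. The groups were far apart, and knockout replicate 3 was the lowest (log2 fold change -0.89 ± 0.16, edgeR adjusted p = 0.00623, or 0.0632 with the close replicates summed). Slc6a9, the glycine carrier GlyT1, fell from 301 ± 36.5 to 192 ± 12.2 normalized counts (log2 fold change -0.65 ± 0.12, edgeR adjusted p = 0.00739, or 0.0938 with the close replicates summed). It overlaps B4galt2 on the opposite strand, which had 234 to 335 counts, so its reads may be shared.

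For 2 Slc6 members the knockout libraries went in different directions. Slc6a6, the taurine carrier, had 3131, 3599.9 and 3496 normalized counts in the control and 5628, 5128 and 2162 in the knockout libraries. Slc6a14, a carrier of neutral and cationic amino acids, had 231, 228.5 and 332.5 normalized counts in the control and 579.8, 600.5 and 176 in the knockout libraries. In both, knockout replicates 1 and 2 were above the control and knockout replicate 3 was below it. Neither passed (log2 fold changes 0.34 ± 0.32 and 0.78 ± 0.44, edgeR adjusted p = 0.454 and 0.21). Without knockout replicate 3, Slc6a14 was called higher.

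Slc6a15, a carrier of branched-chain amino acids and proline, was at 2.72 to 11.5 normalized counts in the control and at 13.5 to 34.1 in the knockout libraries (log2 fold change 1.56 ± 0.55, edgeR adjusted p = 0.0655). Slc6a16 and Slc6a17 stayed between 6.83 and 32.2 normalized counts. The other 11 Slc6 members, among them the carriers of monoamines and GABA, had at most 18 counts in a library.

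Slc43 had no member that passed. Slc43a3, known as a purine nucleobase carrier, had 343, 609.99 and 367 normalized counts in the control and 642, 715 and 507 in the knockout libraries. Control replicate 2 lay inside the knockout range (log2 fold change 0.50 ± 0.24, edgeR adjusted p = 0.153), and without it the log2 fold change was 0.81 with an adjusted p of 0.0149. Slc43a1 and Slc43a2, the large neutral amino acid carriers LAT3 and LAT4, had log2 fold changes of 0.60 ± 0.52 and -0.47 ± 0.24.

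**Figure D3:**
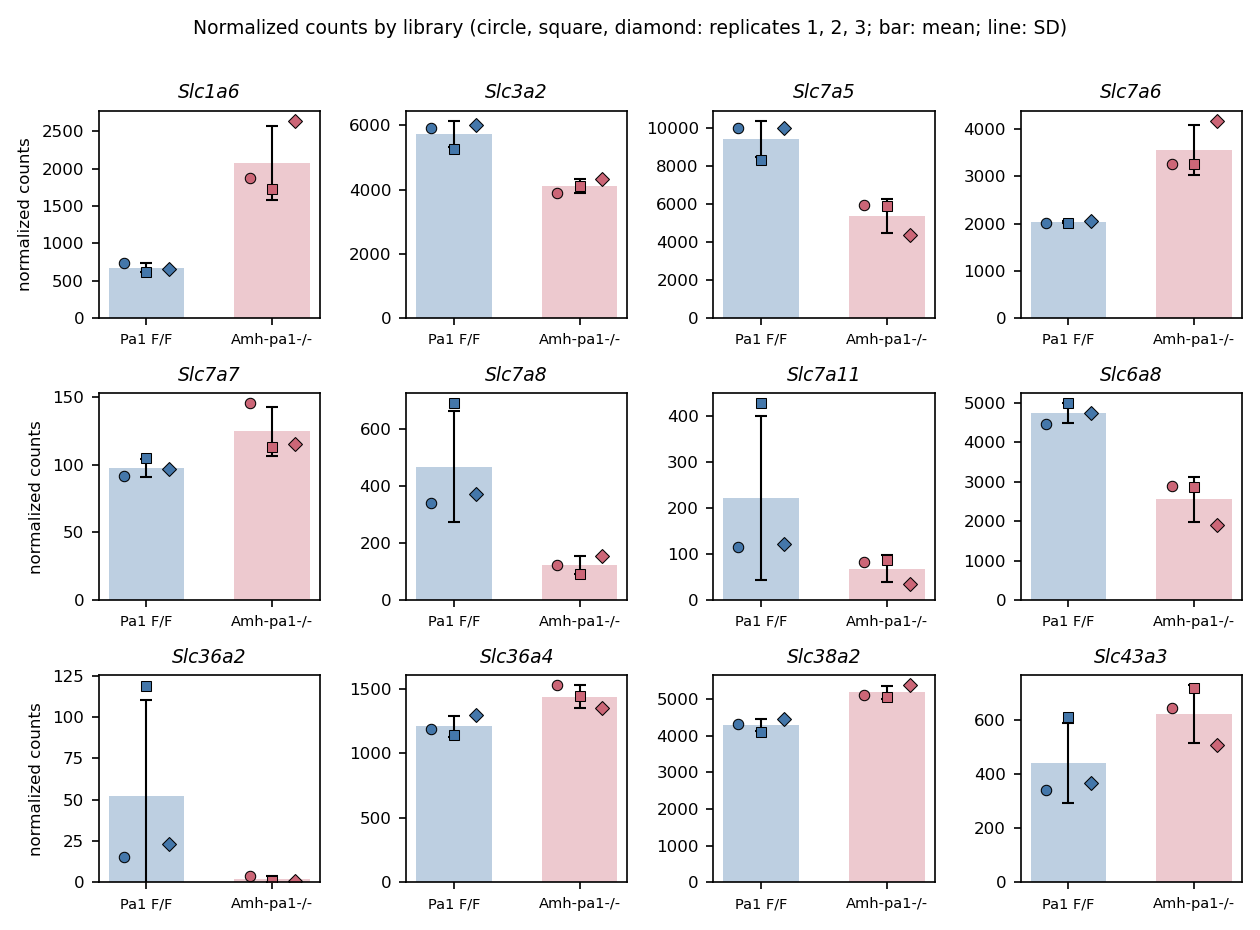
Normalized counts (y axes, each from 0) of 12 members in Pa1 F/F and Amh-pa1-/- libraries (x axes), with circles, squares and diamonds for replicates 1, 2 and 3, bars for the mean and lines for the SD. Groups do not overlap for any gene shown except Slc43a3, and control replicate 2 is well above the other controls for Slc7a8, Slc7a11, Slc36a2 and Slc43a3.

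Summed over all 60 members, the level per kilobase was 11611 ± 283 in control and 10979 ± 446 in knockout cells. This sum and that of Slc7 include Slc7a6os, which is not a carrier, at 299.7 in control and 360.4 in knockout cells. Slc7 held the largest part in both, 39.4 ± 0.75% and 35.7 ± 0.79%. Slc3 went from 19.3 ± 0.99% to 14.7 ± 1.33% and Slc38 went from 15.8 ± 0.01% to 19.3 ± 1.61%, with no overlap of the libraries in these 3 families. Slc6 was at 16.6 ± 1.03% and 13.96 ± 4.20%, where knockout replicate 3 alone was low at 9.13%. Slc36 held 2.59% to 3.32% and Slc43 1.44% to 2.65% of the members' level in a library.

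**Figure D4:**
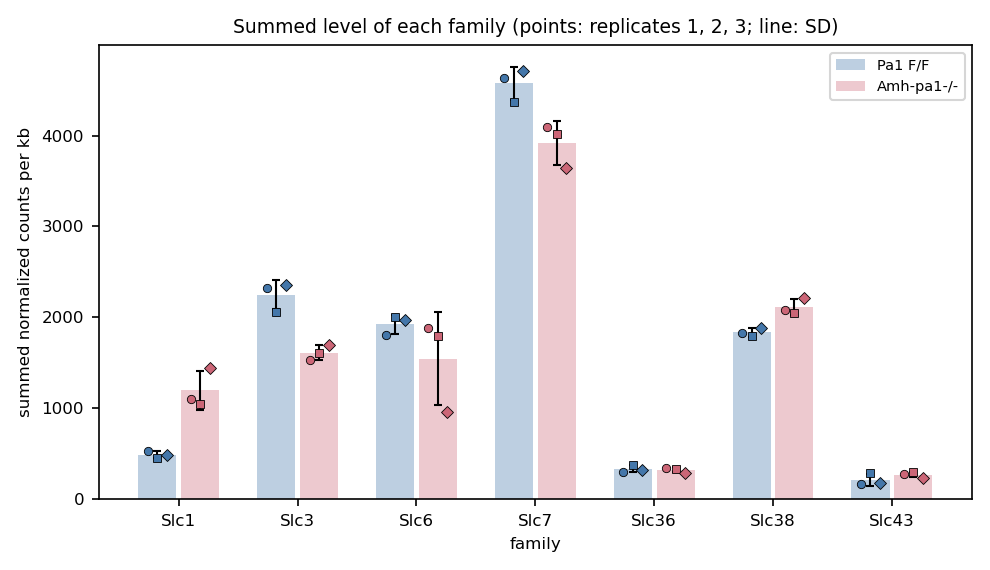
Normalized counts per kilobase of transcript summed over each family (y axis) for the 7 families (x axis) in Pa1 F/F and Amh-pa1-/- libraries, with points for replicates 1, 2 and 3, bars for the mean and lines for the SD. Slc1 and Slc38 are higher and Slc3 and Slc7 are lower in all 3 Amh-pa1-/- libraries, and the low point of Slc6 is knockout replicate 3 at 956.

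The library farthest from the others of its group was control replicate 2 for 19 of the 36 tested members, 6 of them by at least 1.5-fold, and knockout replicate 3 for 25, 8 of them by at least 1.5-fold. These libraries also stood apart over the tested genes at large. The same counts were not made for all tested genes, so they are not read as a trait of the members. The members that were high in control replicate 2, namely Slc36a2, Slc7a8, Slc7a11, Slc7a2 and Slc43a3, were set beside macrophage markers. Adgre1, the macrophage surface marker F4/80, had 23.6, 62.0 and 14.7 normalized counts in the control and 2.93, 4.51 and 2.0 in the knockout libraries. Csf1r and Cd14 were likewise highest in control replicate 2, at 84.2 and 101 normalized counts. Lyz2, at 550, 363 and 454 in the control, and C1qc, at 35.3, 14.5 and 30.4, were lowest there, and the markers' sum was not the highest in that library. Their part in the lower Slc36a2 and Slc7a8 was not tested.

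Carriers of amino acids in other families were read in the same way. Of 18 tested, 2 rose (11.1%, against 18.2% of all tested genes) and 7 fell (38.9%, against 17.1%), with a median log2 fold change of -0.26. Slc15a1, a proton-coupled oligopeptide carrier, was called higher at low level (2.1 to 6.34 normalized counts in the control and 26.1 to 39.4 in the knockout). Slc15a3, a lysosomal peptide and histidine carrier of immune cells, was called lower, from 28.1, 80.4 and 26.2 to 2.93, 3.38 and 3.01, with control replicate 2 again the highest. Both passed the filter on low counts only through the group in which they were high, with Slc15a3 at 3 counts in each knockout library and Slc15a1 at 2 to 7 counts in the control. The mitochondrial carrier Slc25a29 was also called lower (log2 fold change -1.29, edgeR adjusted p = 0.0234). Of 8 tested genes whose proteins bind or regulate these carriers, 1 rose and 2 fell (12.5% and 25.0%, against 18.2% and 17.1% of all tested genes). Arl6ip5, which restrains glutamate transport, rose (log2 fold change 0.97), and the ubiquitin ligases Nedd4 and Nedd4l fell (-0.23 and -0.51).

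Enzymes of amino acid synthesis and interconversion had shares near those of all tested genes, with 6 of 28 tested higher (21.4%, against 18.2%) and 3 lower (10.7%, against 17.1%). Glul, which makes glutamine from glutamate, was called lower at 1191, 1295 and 1199 normalized counts in the control and 559, 611 and 626 in the knockout libraries (log2 fold change -1.04, edgeR adjusted p = 0.000208). Gpt2, the mitochondrial alanine aminotransferase, was called lower as well (log2 fold change -1.93). Aass, which starts lysine breakdown, was called higher (1.69). Glud1, Got2, Oat, Phgdh and Psat1 rose by less, with log2 fold changes of 0.28 to 0.97, and Bcat2 fell.

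Among 31 genes of amino acid sensing by mTORC1, the kinase complex that ties growth to amino acid supply, 1 rose (3.23%, against 18.2% of all tested genes) and 9 fell (29.0%, against 17.1%), with a median log2 fold change of -0.10. Deptor, an inhibitor of mTOR, was the 1 called lower (-1.69), and Akt1s1, Flcn, Fnip1, Sesn1 and Sesn2 were among those that fell by less. Sesn3 was the 1 that rose (0.37). Mtor and Rptor did not pass (-0.02 and -0.10). Of 10 genes of glutathione synthesis, breakdown, use and regulation, 1 rose and 4 fell (10% and 40%, against 18.2% and 17.1%). Ggt7 was called higher and Ggt5 called lower, and Gclc, Gss and Nfe2l2 fell by less.

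Of 17 genes of the ATF4 arm, the amino acid and stress response, 1 rose (5.88%, against 18.2% of all tested genes) and 7 fell (41.2%, against 17.1%), with a median log2 fold change of -0.27. Stc2, Vldlr, Nupr1 and Cebpb were called lower, and Ppp1r15a rose. Atf4 itself was at 3344, 2543 and 3294 normalized counts in the control and 3044, 3010.1 and 2700.3 in the knockout libraries and did not pass. Trib3, a target of ATF4, was at 309, 153 and 252 and at 286, 324 and 87.2, and Chac1, another, was at 140.5, 70.7 and 147 and at 200.1, 222 and 89.2. Both were lowest in the library that stood apart in each genotype, control replicate 2 and knockout replicate 3, as were 5 of the 17 genes in all (Atf4, Atf5, Chac1, Trib3 and Vldlr). Others were not, since Nupr1 and Ddit3 were highest in control replicate 2 and Atf3 and Ppp1r15a were highest in knockout replicate 3. Of the 36 tested members, 8 were lowest in both libraries (Slc1a4, Slc36a4, Slc38a1, Slc38a9, Slc6a14, Slc7a1, Slc7a4 and Slc7a5), with Slc38a1 at 599, 369 and 603 in the control and 570.1, 563 and 488 in the knockout libraries. Slc7a11, whose promoter holds the C/EBP and ATF motif on both strands, was highest in control replicate 2. The same count over all tested genes was not made, so neither count is read as a trait of the members or of the ATF4 arm. These genes were singled out after their values were seen.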

How the data were processed

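RNA-seq counts per gene were analysed for 3 Pa1 F/F and 3 Amh-pa1-/- Sertoli cell libraries, grouped by their titles. The authors aligned reads to GRCm38 with HISAT2 2.1.0 and deposited HTSeq 0.6.0 counts without normalization (tools and versions per the labels). The strand setting of the counting is not given in the sources used here. The table's own comparison columns (mean, fold change, p-values) were not used, and 0 count columns lacked a sample. Depth was 13203757 to 16231443 counts per library. The floor of 3 counts covers counting error only, while the SEs and p-values come from the spread between libraries.

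Genes were filtered with filterByExpr (minimum count 10, minimum total 15), TMM-normalized, and fitted with edgeR 4.0.16 quasi-likelihood in R 4.3.3, with genotype as the only term and Benjamini-Hochberg adjustment over 14919 genes. The SE is the log2 fold change over the root of F. Lengths are those of Ensembl canonical transcripts. The steps were tested on simulated counts. Figures were made with Python 3.11.15. limma 3.58.1 and DESeq2 1.42.0 were alternatives, as were other filters, scalings, a replicate block and left-out libraries.

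Members and gene lists were chosen with earlier results of these data known. Named with every library's value were called members, the most abundant tested member per kilobase of each family, and heavy and light chains. Others given in this way were chosen after their values were seen. For RefSeq promoters, the 250 bases upstream were searched.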

Additional observations from a re-analysis of the deposited data

How the results depend on the processing

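Slc1a6 was called higher under every alternative run. The 1 member called higher became 3 when only control replicates 1 and 3 and knockout replicates 1 and 2 were used, a choice made after seeing the data, which adds Slc6a14 and Slc6a15, and leaving out 1 library at a time gave 1 to 2. The 2 members called lower became 1 with at least 10 counts in every library, 0 with the close replicates summed into 1 library each, and 0 when the null was set at a doubling or halving (glmTreat), and 1 to 4 with 1 library left out. Without knockout replicate 3, Slc6a14 joined the higher and Slc38a5 and Slc6a4 the lower members. limma-voom did not call Slc36a2 (adjusted p = 0.0601) and called Slc38a5 lower. At the adjusted p alone, the 6 higher members became 2 and the 6 lower became 0 with close replicates summed. They became 12 and 10 with the close replicates only, and leaving out 1 library gave 5 to 9 higher and 5 to 8 lower. Slc7a11 passed with DESeq2's Wald test (0.00669) and without the filter on low counts (0.0274). Same-numbered libraries did not deviate together (correlations 0.11, -0.16 and -0.18). The highest correlation, 0.21, was of control replicate 2 with knockout replicate 3, the libraries that stood apart. Since those libraries weigh heavily in such deviations, the correlations cannot settle whether the numbers pair the samples. With the number as a replicate block, 1 member was called higher and 3 lower, Slc7a11 added (log2 fold change -1.53, adjusted p = 0.0463), 5 rose and 8 fell at the adjusted p alone, and Slc36a4 had an adjusted p of 0.0968. None of the 12 members past the adjusted p changed direction under any alternative run, whereas 4 of the 36 tested members, none past it, did under at least 1 (Slc1a5, Slc38a1, Slc6a16 and Slc6a17). Where a result changed, the cause was not tested. The 24 untested members had at most 23 counts in a library, and of these Slc6a4 had groups that did not overlap, at 14, 18 and 8 counts in the control and 1, 2 and 7 in the knockout.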

Other observations

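Eif2ak2, the interferon-induced kinase of the ATF4 arm, was at 1014, 3674 and 1109 normalized counts in control replicates 1, 2 and 3, against 1092, 957.6 and 1284 for the knockout. It did not pass (log2 fold change -0.80, edgeR adjusted p = 0.248), and it was highest in control replicate 2, the library in which Slc36a2, Slc7a2, Slc7a8 and Slc7a11 were also highest. It was chosen after its values were seen.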
